A study of Mus musculus with 2 samples.

Results

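AMPA receptor subunits are encoded by 4 genes, Gria1, Gria2, Gria3 and Gria4, which were taken by symbol from the 55536 annotated genes of a mouse hippocampus RNA-seq series. All 4 were found, with 26 annotated transcripts between them, and each transcript was present in both of the transcript quantifications that the authors deposited. The levels, the transcript makeup and the flip and flop splice forms of these genes are described here.

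AMPA receptors are glutamate-gated cation channels that carry most fast excitatory transmission in the brain. Each channel is a tetramer of the subunits GluA1 to GluA4, the products of these genes, and in hippocampal pyramidal neurons GluA1 with GluA2 and GluA2 with GluA3 are the classic combinations. GluA2 decides the calcium permeability of the channel, because its transcript is recoded from glutamine to arginine in the pore by the RNA editing enzyme ADAR2. Each gene also carries a pair of alternative exons called flip and flop, which code for a short stretch of the ligand-binding domain before the last membrane segment and set how fast the receptor desensitises.

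The measured samples were 2 total RNA libraries from hippocampus of female B6CASTF1/J mice aged 2 months, each prepared from 300 ng of RNA. The source label reads "layer of hippocampus tissue" for both, and it does not say which layer or part is meant. B6CASTF1/J mice are first-generation hybrids between the laboratory strain C57BL/6J and the wild-derived strain CAST/EiJ. Both libraries carry the same strain, sex, age and tissue and no treatment is labelled, so they form 1 group with no condition to contrast. The libraries are labelled biological replicates 1 and 2 and have separate tissue records but 1 donor record in common. Whether they come from separate animals is therefore not known, and part of the difference between them may be technical.

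Annotated genes held 29490900 expected counts in replicate 1 and 30691917 in replicate 2, and the libraries differed by more than sampling noise (chi-square per degree of freedom 3.74 over 13531 genes), so they are not the same library deposited again. Markers of neurons, of the hippocampal fields CA1, CA2, CA3 and dentate gyrus, of astrocytes, of the oligodendrocyte lineage, of microglia, of endothelium and of choroid plexus were all at 1 TPM or more in both libraries. TPM is a transcript's share of the library per unit of length, scaled to a fixed total. None of the 3 cerebellar markers reached that level in both, and Gabra6, a marker of cerebellar granule cells, stood at 0.12 and 0.23 TPM. The choroid plexus marker Ttr stood at 121 TPM in replicate 1 and 65.7 TPM in replicate 2, and its part in the values below was not tested. In a tissue sample, more cells of a type and more RNA per cell cannot be told apart.

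The flip and flop exons are shown first, because the splice forms below are told apart by them. Both exons of each gene are 115 bases long, and the flop exon precedes the flip exon on the gene's strand in all 4 genes. The sequences are the mm10 reference, written 5′ to 3′ on the coding strand, and capitals mark the bases at which flip and flop of the same gene differ.
Gria1 flip, chr11:57310608-57310722, plus strand: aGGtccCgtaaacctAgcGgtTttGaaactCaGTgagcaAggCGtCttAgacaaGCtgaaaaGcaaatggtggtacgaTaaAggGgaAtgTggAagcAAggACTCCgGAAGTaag
Gria1 flop, chr11:57309769-57309883, plus strand: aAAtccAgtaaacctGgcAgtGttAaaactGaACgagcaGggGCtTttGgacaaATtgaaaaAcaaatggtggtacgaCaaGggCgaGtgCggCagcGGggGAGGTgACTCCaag
Gria2 flip, chr3:80690404-80690518, minus strand: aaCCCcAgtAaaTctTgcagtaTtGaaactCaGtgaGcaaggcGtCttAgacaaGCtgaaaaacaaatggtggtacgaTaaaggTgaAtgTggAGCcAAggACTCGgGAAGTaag
Gria2 flop, chr3:80691320-80691434, minus strand: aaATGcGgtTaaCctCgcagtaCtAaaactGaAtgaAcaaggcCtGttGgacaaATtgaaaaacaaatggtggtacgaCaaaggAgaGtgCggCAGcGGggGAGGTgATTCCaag
Gria3 flip, chrX:41669501-41669615, plus strand: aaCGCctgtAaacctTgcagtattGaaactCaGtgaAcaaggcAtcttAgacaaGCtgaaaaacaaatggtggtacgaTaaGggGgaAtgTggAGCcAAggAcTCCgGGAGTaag
Gria3 flop, chrX:41654810-41654924, plus strand: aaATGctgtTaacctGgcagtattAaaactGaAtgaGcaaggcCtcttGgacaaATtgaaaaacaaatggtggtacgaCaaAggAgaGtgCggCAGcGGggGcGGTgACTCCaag
Gria4 flip, chr9:4427030-4427144, minus strand: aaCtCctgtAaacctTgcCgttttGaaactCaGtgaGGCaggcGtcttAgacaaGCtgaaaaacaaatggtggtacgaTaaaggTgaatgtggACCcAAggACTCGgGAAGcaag
Gria4 flop, chr9:4432773-4432887, minus strand: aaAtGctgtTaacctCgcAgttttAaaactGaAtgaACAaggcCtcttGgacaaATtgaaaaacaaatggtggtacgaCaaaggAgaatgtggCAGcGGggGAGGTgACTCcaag

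Flip and flop of the same gene differed at 36 bases in Gria1, 36 in Gria2, 32 in Gria3 and 31 in Gria4. The exons were more alike between genes than within a gene. Identity between flip exons of different genes was 87.8% to 92.2%, between flop exons 87.8% to 94.8%, and between flip and flop of 1 gene 68.7% to 73.0%. The exons were found and named by a translated motif with serine for flip and asparagine for flop, so these residues are fixed by the choice. The codon in question starts at base 32 and reads AGT, serine, in each flip exon, and AAC or AAT, asparagine, in each flop exon. The intron between the pair is 724 bases long in Gria1, 801 in Gria2, 5628 in Gria4 and 14576 in Gria3. Reads were not split by parental allele, and editing was not measured, since neither can be read from these tables.

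Gria1 and Gria2 were the high subunit genes, Gria3 was intermediate and Gria4 was low. Gria1 (ENSMUSG00000020524.16, chr11:57011387-57330244, plus strand), which codes for GluA1, the subunit whose C-terminal tail is phosphorylated by CaMKII during potentiation, stood at 285 TPM in replicate 1 and 293 TPM in replicate 2. Gria2 (ENSMUSG00000033981.14, chr3:80681450-80802835, minus strand), which codes for the calcium-limiting GluA2, stood at 279 and 289 TPM. Gria3 (ENSMUSG00000001986.16, chrX:41400854-41678601, plus strand), which codes for GluA3, stood at 70.0 and 68.7 TPM. Gria4 (ENSMUSG00000025892.16, chr9:4417896-4796234, minus strand), whose product GluA4 is best known from fast-spiking interneurons, stood at 21.85 and 21.04 TPM. The order of the levels was the same in both libraries.

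The values rest on 32659 and 35151 expected counts for Gria1, 27461 and 29542 for Gria2, 6346 and 6678 for Gria3, and 1847 and 1829 for Gria4 in replicates 1 and 2. By mean TPM, Gria1 ranked 120th and Gria2 130th among 22015 protein-coding nuclear genes, while Gria3 ranked 1237th and Gria4 4733rd. Of those genes 58.0% were detected, meaning 1 TPM or more in both libraries, and the median of the detected genes was 14.6 TPM, so all 4 subunit genes lay above the median. In the second quantification the levels were 483 and 514 TPM for Gria1, 439 and 456 for Gria2, 105 and 107 for Gria3, and 34.9 and 32.8 for Gria4. TPM values were higher there for each of the 4 genes, and their order was kept. Their standing among genes was not higher, since Gria1 ranked 141st, Gria2 177th, Gria3 1493rd and Gria4 5163rd of 21938 there.

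**Figure D1:**
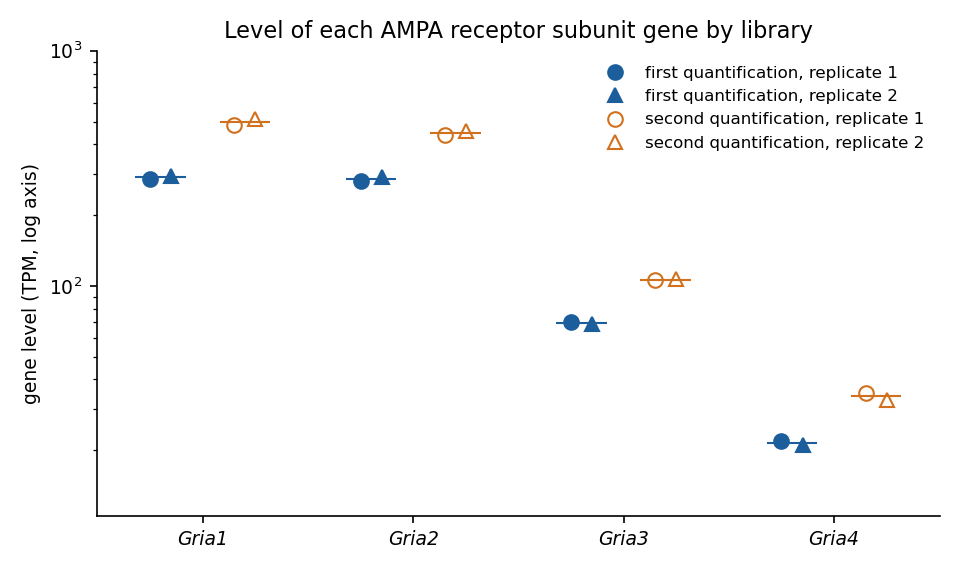
Level of each AMPA receptor subunit gene in TPM (log axis) by gene, with 1 marker per library, filled for the first quantification and open for the second, and horizontal bars at the means. Gria1 and Gria2 lie together at the top, at means of 289 and 284 TPM in the first quantification, with Gria3 at 69.4 and Gria4 at 21.4 TPM below them.

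Summed over the 4 genes, the family stood at 665 ± 11.2 TPM (SD, n = 2). Gria1 and Gria2 together made up 86.0% of it in replicate 1 and 86.7% in replicate 2, and 86.8% and 87.5% in the second quantification. Gria3 made up 10.4% ± 0.319 and Gria4 3.23% ± 0.141.

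Differences between genes were taken within each library as log2 ratios of TPM, and a pair was called apart where both libraries gave the same direction and the mean was at least 3 SD. No p-value is given, because a two-sided exact sign-flip permutation test on 2 libraries cannot go below 0.5, and an SD from 2 libraries is itself poorly known. Gria1 over Gria2 was 0.03 in replicate 1 and 0.02 in replicate 2 (mean 0.03 ± 0.01), which was not past 3 SD. In the second quantification it was 0.14 and 0.17, past 3 SD at 0.15 ± 0.03, or 1.11-fold. That call rests on the 531-base processed transcript Gria1-205, at 57.1 and 78.5 TPM from 179 and 251 estimated counts. The protein-coding transcripts of Gria1 alone stood at 426 and 436 TPM there, below the 439 and 456 TPM of all Gria2 transcripts. Gria2 over Gria3 was 2.00 and 2.08, a mean of 2.04 ± 0.06 or 4.10-fold. Gria3 over Gria4 was 1.68 and 1.71, a mean of 1.69 ± 0.02 or 3.23-fold. Both of these neighbouring steps were past 3 SD in both quantifications, and so were the 3 wider pairs. The widest step, Gria1 over Gria4, was 3.75 ± 0.07, or 13.5-fold.

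The near equality of Gria1 and Gria2 held for the sum over all annotated transcripts but not for the full-length coding transcripts. Counting only transcripts with the flip or the flop exon and an annotated reading frame that is not a decay target, Gria1 stood at 279 and 288 TPM in replicates 1 and 2, and Gria2 at 181 and 179 TPM. The log2 ratio of Gria1 over Gria2 was then 0.66 ± 0.04, or 1.58-fold, past 3 SD. The second quantification gave 0.57 ± 0.04, or 1.48-fold. On this measure Gria1 made up 55.0% ± 1.03 of the family, Gria2 34.9% ± 0.418, Gria3 7.93% ± 0.498 and Gria4 2.22% ± 0.114. The restriction to full-length transcripts was chosen after the data were seen. The annotation gives Gria1 no retained-intron or decay-target model but gives 5 and 1 to Gria2. Of this pair, the restriction can therefore drop such models from Gria2 only, and the genes are not treated alike. Among the models dropped, Gria2-208, at 26.4 and 29.3 TPM, has only 5.37% of its bases outside protein-coding Gria2 transcripts.

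Of the 26 transcripts, 14 are annotated as protein coding, 9 as retained intron, 2 as targets of nonsense-mediated decay and 1 as a processed transcript. In each quantification 19 of them were at 1 TPM or more in both libraries. In the first quantification 3 were at 0 in both libraries (Gria1-205, Gria2-207 and Gria3-209), and in the second 4 were (Gria1-203, Gria1-204, Gria2-207 and Gria3-203). Only Gria2-207, a retained-intron model, was at 0 in every library of both. Within each gene the full-length flip and flop transcripts end their reading frame at 1 and the same stop position, so long and short C-terminal tails cannot be compared with this annotation.

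The transcript with the largest share of its gene's TPM was the same in both libraries and both quantifications for each of the 4 genes, while by expected counts the lead in Gria4 passed to another. The libraries shared their leading transcript for 88.5% of 12048 expressed genes with several transcripts in the first quantification and for 86.3% in the second, and the quantifications shared it for 74.9%, so 4 of 4 is read against these shares. The leading share itself was 57.6% ± 1.19 for Gria1-201, 49.6% ± 2.03 for Gria2-202, 53.4% ± 0.0962 for Gria3-201 and 46.7% ± 1.08 for Gria4-203. All 4 lay below the median leading share of the same genes in the first quantification, 60.5%. In the second the median was 55.9%, and Gria3-201, at 65.0%, lay above it.

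**Figure D2:**
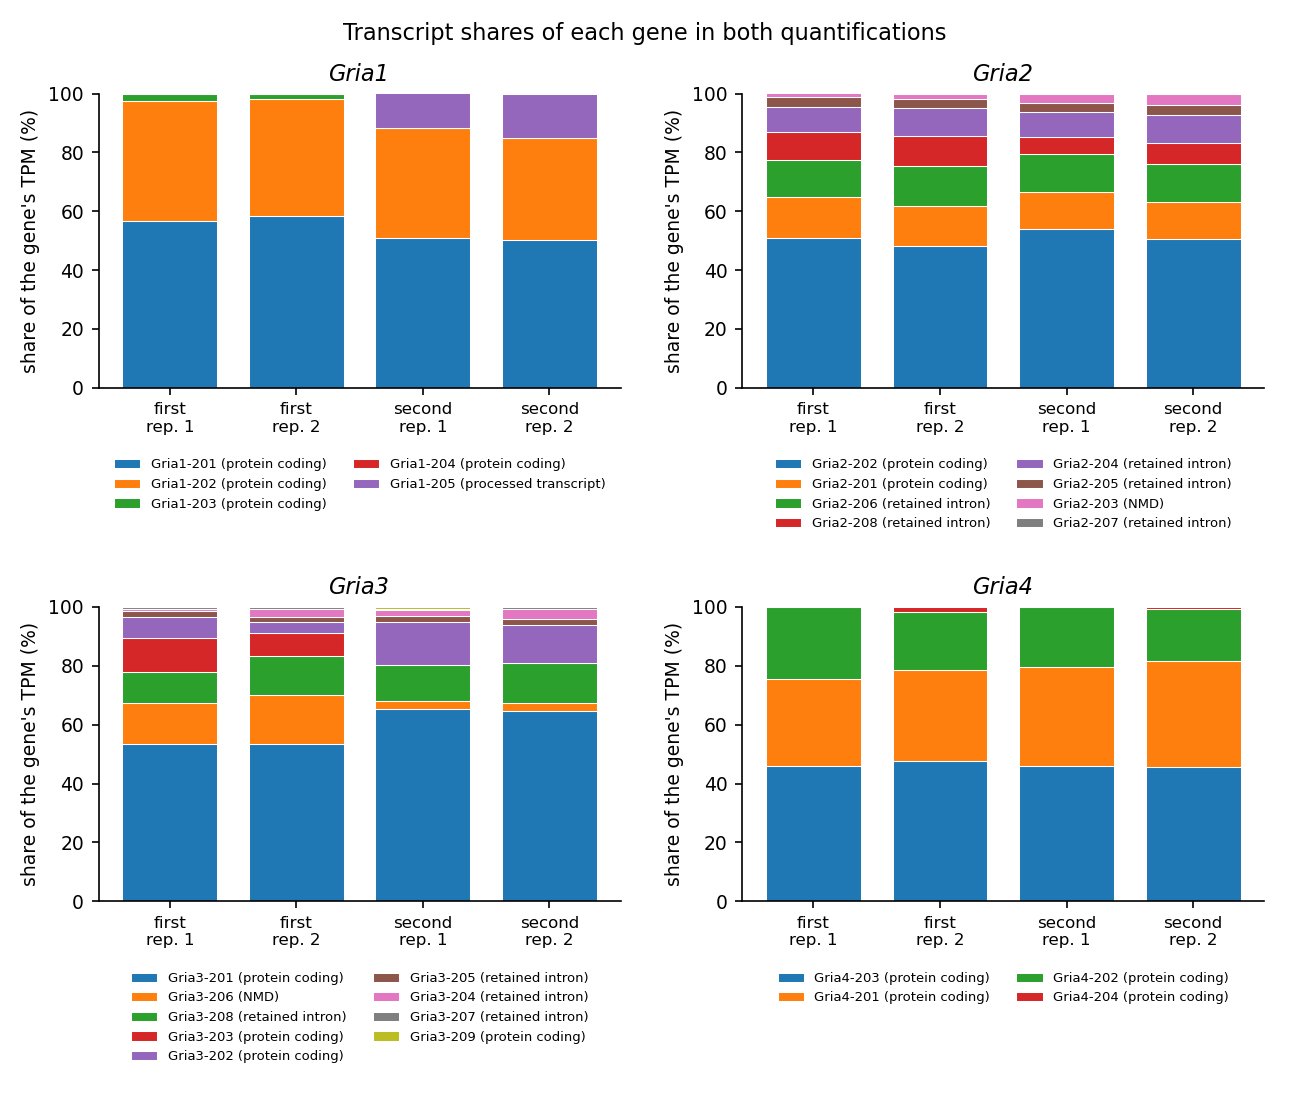
Share of each gene's TPM (%) taken by each annotated transcript, as stacked bars, 1 per library and quantification, with the annotation's class beside each transcript name (NMD, target of nonsense-mediated decay). The Gria2 and Gria4 bars look alike across quantifications, whereas in Gria1 and Gria3 a short or decay-target model takes a visible share in only 1 of the quantifications.

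For Gria1, the flip transcript Gria1-201 (ENSMUST00000036315.15) stood at 162 and 171 TPM in replicates 1 and 2. The flop transcript Gria1-202 (ENSMUST00000094179.10) stood at 116 and 117 TPM. Both code for 907 residues and together they took 97.5% and 98.2% of the gene's TPM in the first quantification, and the deposited intervals of the pair did not overlap in either library. A shorter flip model of 838 codons, Gria1-204, stayed at 0.80 and 0.57 TPM.
The remaining difference between the quantifications of Gria1 lay in its short models. The 531-base processed transcript Gria1-205 was at 0 in the first quantification in both libraries, with 57.1 and 78.5 TPM in the second, or 13.5% ± 2.43 of the gene. Only 179 and 251 estimated counts stand behind those values, a mean of 0.604% of the gene's counts. The 287-base model Gria1-203 went the other way, with 6.31 and 4.82 TPM in the first quantification and 0 in the second. Gria1-203 has 188 effective bases and held 25.8 and 20.5 expected counts, so few reads stand behind its TPM.

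For Gria2, the flip transcript Gria2-202 (ENSMUST00000107745.7) stood at 143 and 139 TPM. The flop transcript Gria2-201 (ENSMUST00000075316.9) stood at 38.3 and 39.5 TPM. Both code for 883 residues. The decay target Gria2-203, which joins the flip and the flop exon in 1 transcript, stood at 3.60 and 4.93 TPM.
A further 35.2% ± 1.77 of Gria2 TPM was on its 5 retained-intron models, which are annotated with an intron kept and have no annotated reading frame. The libraries are total RNA, and whether the reads on these models come from spliced RNA was not tested. Gria2-206 stood at 35.5 and 39.0 TPM, Gria2-208 at 26.4 and 29.3 TPM, Gria2-204 at 23.6 and 27.7 TPM and Gria2-205 at 9.31 and 9.65 TPM. Each of these 4 was higher in replicate 2 than in replicate 1. The second quantification put 31.6% ± 1.83 there.
This share of TPM was above that of 84.6% of the 7450 expressed protein-coding genes with such a model in the first quantification. In the second it was above that of 80.1%, and the medians were 13.3% and 14.0%. The comparison takes any gene with such a model, whatever their number, and Gria2 has 5. By counts the Gria2 share was 24.7% ± 1.44 in the first quantification and 22.6% ± 1.31 in the second. How far these models differ from the coding ones varied. Of Gria2-204, 56.0% of the bases lie in no protein-coding Gria2 transcript, and of Gria2-205 74.9%, but of Gria2-208 only 5.37%, so most of the bases of Gria2-208 are also in coding transcripts. Gria1 and Gria4 have no annotated retained-intron model, so a zero share there is not a measurement.

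For Gria3, the flip transcript Gria3-201 (ENSMUST00000076349.11) stood at 37.4 and 36.6 TPM. The flop transcript Gria3-202 (ENSMUST00000115103.8) stood at 5.19 and 2.64 TPM. Both code for 888 residues, and the other flop model, Gria3-209, was at 0 in the first quantification and at 0.575 and 0.105 TPM in the second. Gria3 had 4 retained-intron models with 16.2% ± 3.28 of its TPM, or 18.4% ± 2.11 in the second quantification, and Gria3-208 held most of it, at 7.42 and 9.20 TPM.
The decay target Gria3-206, which also joins both exons, took 15.3% ± 1.93 of the gene in the first quantification, at 9.73 and 11.4 TPM. In the second it took 2.59% ± 0.157, at 2.84 and 2.64 TPM. The 322-base model Gria3-203 stood at 7.97 and 5.29 TPM in the first quantification and at 0 in the second.
Over all its transcripts, 22.4% of Gria3 TPM was on different transcripts in the quantifications. The same measure was 13.5% for Gria1, 4.53% for Gria2 and 4.54% for Gria4, against a median of 18.9% over the 12048 genes.

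For Gria4, the leading transcript by TPM was a short one. Gria4-203 (ENSMUST00000163309.1) stood at 10.05 and 10.00 TPM in replicates 1 and 2, and in the second quantification at 16.0 and 14.9 TPM. It codes for 433 residues, 48.0% of the 902 of the full subunit, and ends in an exon of 590 bases at chr9:4478263-4478852 that shares no base with the flop transcript Gria4-201 (ENSMUST00000027020.12). The reading frame stops before the flip and flop exons, so this transcript holds neither.
The full-length transcripts Gria4-201, flop, and Gria4-202 (ENSMUST00000063508.14), flip, stood at 6.48 and 6.55 TPM and at 5.33 and 4.11 TPM. A further flop model, Gria4-204, was at 0 and 0.39 TPM. By expected counts, which rise with transcript length, the lead passed to Gria4-201 with 42.0% of the gene, against 27.1% for Gria4-203.

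**Figure D3:**
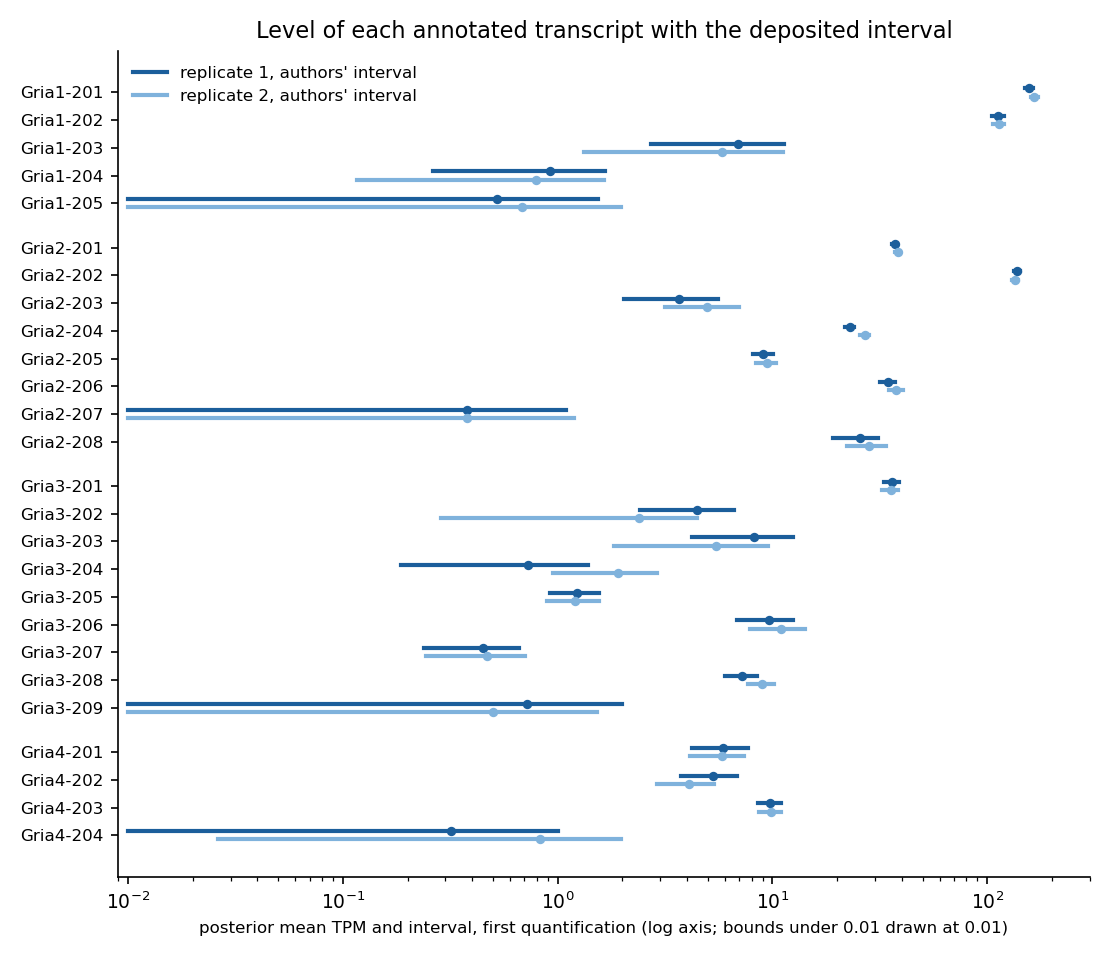
Posterior mean TPM (points) and deposited interval (lines) of each of the 26 transcripts in the first quantification, on a log axis, dark for replicate 1 and light for replicate 2. Intervals of the leading Gria1 and Gria2 transcripts are narrow, and those of Gria4-201 and Gria4-202 overlap. Those of models with 0 expected counts in a library reach the left edge, where bounds under 0.01 are drawn.

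The flip share is the TPM of transcripts with the flip exon over that of transcripts with either exon. In Gria3 it was 87.8% in replicate 1 and 93.3% in replicate 2, a mean of 90.5% ± 3.86 (SD, n = 2). In Gria2 it was 78.8% and 77.9%, a mean of 78.4% ± 0.656. In Gria1 it was 58.3% and 59.6%, a mean of 59.0% ± 0.915. In Gria4 it was 45.1% and 37.2%, a mean of 41.2% ± 5.61. Flip forms were the majority in both libraries for Gria1, Gria2 and Gria3, and flop forms for Gria4. This Gria4 mean lay within 3 SD of equal shares, however, and the deposited intervals of Gria4-201 and Gria4-202 overlapped in both libraries. The second quantification gave 82.3% ± 1.61 for Gria3, 80.3% ± 0.67 for Gria2, 58.5% ± 0.843 for Gria1 and 35.0% ± 3.59 for Gria4. There the Gria4 mean lay more than 3 SD below equal shares. The 2 decay targets that hold both exons were left out of the share. In Gria3 this matters in the first quantification, where Gria3-206 stood at 9.73 and 11.4 TPM and the flop transcripts at 5.19 and 2.64 TPM. The Gria3 share, and its place above Gria2, therefore depend on this choice, and shares with the decay targets included were not computed.

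The difference in flip share between Gria1 and Gria2, -19.4 ± 1.57 percentage points (Gria1 minus Gria2), was past 3 SD by TPM, as was that in the second quantification, -21.8 ± 1.51. By counts in place of TPM this difference was 1.53 ± 1.85 in the first quantification, with the sign turned in both libraries. In the second it was -0.83 ± 1.86, and it was past 3 SD in neither. Counts are not divided by length, and the Gria2 flop transcript has 10272 effective bases against 3927 for the flip one. Count shares therefore weigh the 2 forms by annotated length and are not a like measure. Gria1 minus Gria3 was -31.6 ± 2.94 and -23.8 ± 0.765 in the first and second quantification, past 3 SD in both. Gria2 minus Gria3 was -12.2 ± 4.51 and -1.98 ± 2.28, and was past 3 SD in neither, but by counts it was -36.1 ± 3.39 and -29.2 ± 2.06, past it in both. The longer form is flop in Gria2 and flip in Gria3, so counts weigh these genes in opposite directions. Gria1 minus Gria4 was 17.8 ± 6.53, not past 3 SD, and 23.5 ± 4.43 in the second quantification, past it. Gria2 and Gria3 were each past 3 SD above Gria4 in both, by TPM and by counts.

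**Figure D4:**
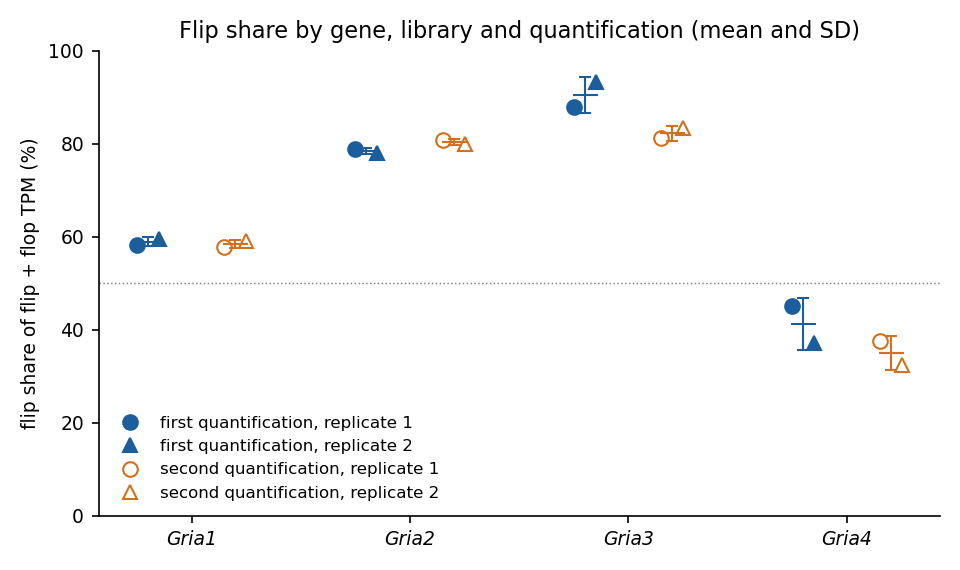
Flip share of each gene (% of TPM on transcripts with the flip or the flop exon) by library, filled for the first quantification and open for the second, with mean and SD bars and a dotted line at equal shares. Gria1, Gria2 and Gria3 lie above the line in both libraries and Gria4, at 41.2% and 35.0%, below it.

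The annotated flip and flop transcripts of a gene are not alike outside the exon pair, and this bears on the shares. In Gria2 the flip transcript has a 3′ UTR of 923 bases and the flop transcript one of 7268 bases, so the exon is 1.78% of the bases that are in the flop transcript alone. In Gria3 it is the flip transcript that has the long 3′ UTR, 2264 bases against 248 in the flop transcript, and the exon is 4.88% of the bases of the flip transcript alone. For these 2 genes the share of flip and the share of a 3′ UTR length cannot be told apart in the tables. By expected counts in place of TPM the Gria2 flip share was 58.1% ± 0.943, against 78.4% by TPM. In Gria1 the 3′ UTRs differ by 1 base and the flip transcript has 147 bases of its own outside the exon, while in Gria4 the pair differ by 3 and 92 bases outside it. For Gria1 and Gria4 the shares by counts were 59.6% ± 0.91 and 40.8% ± 5.55.

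**Figure D5:**
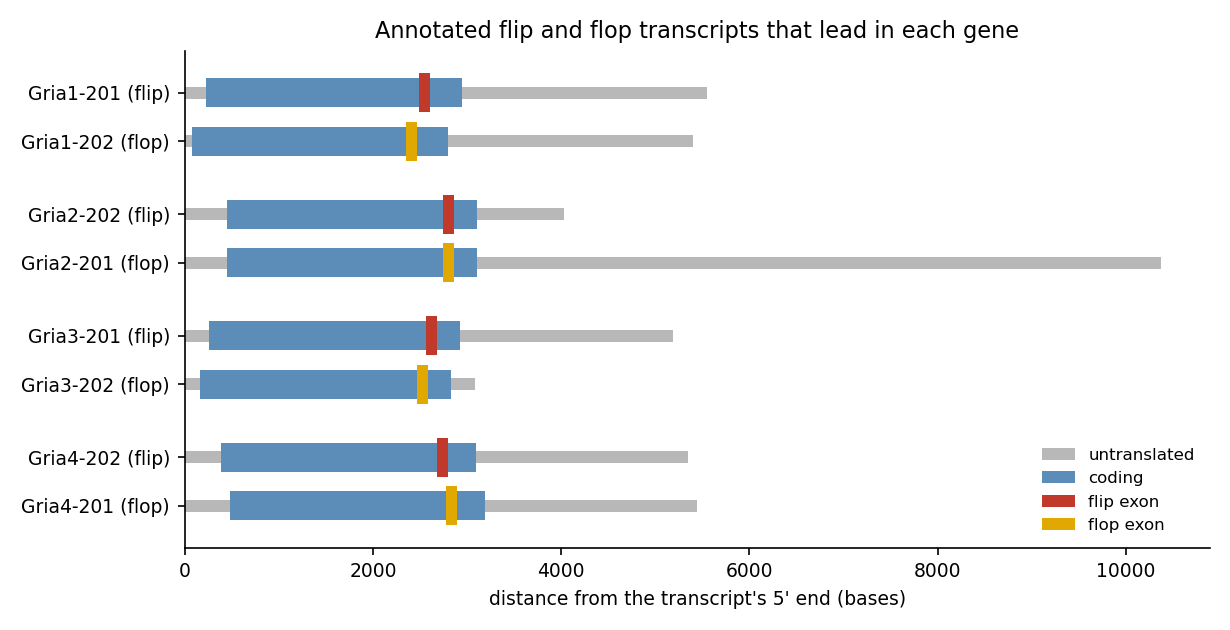
Annotated flip and flop transcripts of each gene drawn to scale, in bases from the 5′ end, with untranslated parts in grey, coding parts in blue and the flip or flop exon in red or yellow. The coding parts are of like length within a gene, whereas the 3′ UTR of 7268 bases in Gria2-201 and that of 248 bases in Gria3-202 stand apart from their partners.

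Between the libraries, none of the 4 genes was apart. The log2 ratios of replicate 1 over replicate 2, from TMM-scaled counts, were -0.04 for Gria1, -0.04 for Gria2, -0.01 for Gria3 and 0.08 for Gria4. Of 15509 genes at a mean CPM of 1 and above, where CPM is a count relative to library size, 0.529% were apart by 1 or more on the log2 scale, so 0 of 4 is no different from the background. The median size of the ratio was 0.04 over the 4 genes and 0.08 over all genes tested.
Of small genes that overlap the members, only Gm25749, a 111-base miRNA gene inside Gria2 on the same strand, had counts. It held 12.1 and 7.07 expected counts, beside 27461 and 29542 for Gria2, and the pair summed to whole numbers, 27473 and 29549, in the 2 libraries. Gria1, Gria3 and Gria4 had whole expected counts of their own.

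Genes for proteins that assemble with AMPA receptors were read in the same libraries at the RNA level, and their lists were chosen with earlier results of these data known. Of 7 genes for TARPs (transmembrane AMPA receptor regulatory proteins) and related claudins, 7 were detected, with a median of 14.5 TPM. Cacng8, which codes for the TARP gamma-8 of hippocampal synapses, led at 163 ± 0.651 TPM, then Cacng7 at 53.0 ± 1.19 and Cacng3 at 24.1 ± 0.53 TPM. Of 6 cornichon and Shisa genes, 5 were detected (median 50.8 TPM), led by Cnih2, a cornichon that slows receptor deactivation, at 240 ± 0.467 TPM, with Shisa7 at 77.8 ± 2.81 and Shisa6 at 75.4 ± 0.219 TPM. Shisa8 stood at 0.45 and 0.37 TPM.
All 10 genes of the list of other complex and assembly proteins were detected (median 49.9 TPM), led by the lipase Abhd12 at 122 ± 0.643, the receptor-associated membrane protein Prrt1 at 117 ± 2.6 and its relative Prrt2 at 94.1 ± 1.35 TPM. All 7 genes for anchoring and trafficking were detected (median 33.6 TPM), led by Nsf, the ATPase that binds the GluA2 tail, at 455 ± 16.7 TPM, then the synaptic scaffold Dlg4 (PSD-95) at 349 ± 7.74 and Epb41l1, which links GluA1 to the actin skeleton, at 131 ± 2.16 TPM. Detection was 58.0% over all protein-coding nuclear genes.

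Of the 14 other ionotropic glutamate receptor subunits, 13 were detected, with a median of 19.6 TPM, and Grin3b was at 0.07 and 0.06 TPM. The highest were the NMDA receptor subunits Grin1 at 179 ± 5.37, Grin2a at 153 ± 10.8 and Grin2b at 144 ± 10.2 TPM. Summed over all transcripts of each gene, they were below Gria1 and Gria2 and above Gria3 in both libraries. The full-length coding transcripts of Gria2 alone stood at 181 and 179 TPM, beside 183 and 175 TPM for all of Grin1. The 3 adenosine deaminase genes of RNA editing were detected, with Adar at 48.4 ± 1.06, Adarb1, which codes for the ADAR2 that edits GluA2, at 45.4 ± 2.14, and Adarb2, whose product has no known editing activity, at 18.3 ± 1.63 TPM.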

How the data were processed

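Total RNA libraries of 2 hippocampus samples (1 group) were analysed. For each library the authors deposited 1 table of genes and 1 of transcripts. Per the file headers their columns are an expected count, a TPM value, a posterior mean TPM and 2 kinds of score, the posterior SD of the count and the bounds of a TPM interval, whose level no header or label states. Gene TPM can lie above that interval (Gria1 285 TPM against 273 to 284 in replicate 1), which goes with the posterior mean. The authors deposited a further transcript table with an estimated count and a TPM value, called here the second quantification. Its values were summed per gene, while gene values of the first were used as deposited. The assembly is mm10 per the labels and the annotation M21 per the notes with the files. The programs used are not given in the sources used here. Lengths minus effective lengths imply reads of 100 bases in the first quantification and a mean gap of 337 and 339 bases in the second. All 55536 gene identifiers matched the M21 annotation, which gave exons, biotypes and, with its transcript sequences, the exon sequences. The 26345 other entries, with 0.378% and 0.368% of counts, stayed out.

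Levels and shares are means ± SD over 2 libraries. Flip and flop exons were found as the coding exons whose translation holds a short motif with serine (flip) or asparagine (flop). They were then checked to form a pair of equal length in each gene, not joined in any protein-coding transcript. The motif planned for this was changed, because the Gria4 flip exon departs from it after the serine, and decay targets that join both exons were set aside. Log2 ratios between libraries used expected counts rounded to whole numbers, with 0.5 added, over TMM-scaled library sizes (edgeR 4.0.16, limma 3.58.1, R 4.3.3), for genes at a mean of 1 CPM or more. DESeq2 1.42.0 gave alternative size factors. The scripts were tested on simulated data. Python 3.11.15, numpy 2.4.6, pandas 2.3.3 and matplotlib 3.10.9 were used.

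All members with all their transcripts are named, and of each list the 3 highest genes and those not detected. The members and lists were chosen with earlier results of these data known. Alternatives were the second quantification, counts in place of TPM, subsets of transcripts, a pseudocount, other scalings and filters, and each library left out.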

Additional observations from a re-analysis of the deposited data

How the results depend on the processing

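No ratio of gene levels reversed under the alternatives run, but 1 difference in flip share did. By expected counts Gria1 minus Gria2 was 1.53 percentage points, against -19.4 by TPM, and by the counts of the second quantification it was -0.83 and no longer past 3 SD. Gria2 minus Gria3 passed 3 SD by the counts of both quantifications, at -36.1 and -29.2, and Gria1 minus Gria4 passed it in the second quantification, at 23.5 by TPM and 24.5 by counts. These alternatives for the differences were added after the data were seen. In the second quantification the log2 ratio was 0.15 for Gria1 over Gria2 and 1.65 for Gria3 over Gria4, the leading share was 50.6% for Gria1, 52.1% for Gria2 and 65.0% for Gria3, and the flip share was 80.3% for Gria2, 82.3% for Gria3 and 35.0% for Gria4. With protein-coding transcripts alone, the log2 ratios were 0.69 for Gria1 over Gria2, 1.92 for Gria2 over Gria3 and 1.15 for Gria3 over Gria4, and the leading shares 78.4% for Gria2 and 78.1% for Gria3. With full-length coding transcripts alone, an alternative added after the data were seen, the 3 ratios were 0.66, 2.14 and 1.84. By expected counts the transcripts that lead by TPM took 59.3% of Gria1, 43.1% of Gria2, 64.1% of Gria3 and 27.1% of Gria4, where Gria4-201 led instead with 42.0%, and the flip share of Gria2 was 58.1%. A pseudocount of 1 TPM gave 1.65 for Gria3 over Gria4. Without a filter on low counts 5649 genes were apart between the libraries, against 82 with it, since low counts then enter. Counts are not divided by length, so shares by counts and by TPM differ where the transcripts of a gene differ in length. The cause of the other changes was not tested. Leaving out each library in turn gave 0.02 to 0.03, 2.00 to 2.08 and 1.68 to 1.71 for the 3 ratios. Leading shares ranged from 56.7% to 58.4% for Gria1, 48.2% to 51.0% for Gria2, 53.3% to 53.4% for Gria3 and 46.0% to 47.5% for Gria4. Flip shares ranged from 58.3% to 59.6%, 77.9% to 78.8%, 87.8% to 93.3% and 37.2% to 45.1% for Gria1 to Gria4. Differences in flip share ranged from -20.5 to -18.3 for Gria1 minus Gria2, -33.7 to -29.5 for Gria1 minus Gria3, 13.2 to 22.4 for Gria1 minus Gria4, -15.4 to -8.98 for Gria2 minus Gria3, 33.7 to 40.7 for Gria2 minus Gria4 and 42.7 to 56.1 for Gria3 minus Gria4. No paired analysis was possible because the libraries form 1 group. Depth limits Gria4 most, at 1847 and 1829 counts.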
